A study of Mus musculus with 8 samples.

Results

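The X chromosome of the mouse carries 5 gene families known by the symbols Rhox, Magea, Mageb, Xlr and Slx, most of whose members are active in the germ line and arranged in arrays of near-identical copies. All protein-coding genes annotated on X whose symbol starts with 1 of these names were taken, which gave 60 of the 966 X-linked protein-coding genes of the RefSeq table of GRCm38.p6 (the assembly also called mm10). There were 33 Rhox, 8 Magea, 7 Mageb, 10 Xlr and 2 Slx genes. The Mageb genes include Mageb17-ps, which the table lists as protein-coding. The choice used names and positions only. With neighbours no more than 500 kb apart joined, the genes fell into 10 clusters: all Rhox genes in 1, 9 of the 10 Xlr genes in another, 2 Magea clusters of 2 and 6 genes, a Mageb cluster of 5, and 5 genes standing alone.

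H3K27me3, trimethylation of lysine 27 on histone H3, was mapped by chromatin immunoprecipitation and sequencing in female neural stem cells, with 2 libraries per genotype and a whole-cell extract library for each. The lines were made from Smchd1 del/fl embryos at E14.5, on a mix of the strains C57BL/6, 129 and Castaneus. Smchd1 del/del cells had received the MSCV-Cre-puro retrovirus, were put under puromycin from 24 h after transduction and were harvested on day 7, while Smchd1 del/fl cells were kept without virus. In both groups the X from the mother was of 129 origin with the Xist deltaA allele and the X from the father was Castaneus. Deletion and transduction went together and cannot be told apart. Lines were split between the groups, without a label saying which libraries share one. The peak lists join both X chromosomes and all cells of a culture, so more marked cells, more marked chromosomes and more of the mark per chromosome cannot be told apart. MACS2 used between 11793402 and 14064030 tags of 69 to 75 bases per H3K27me3 library. Smchd1 itself and Xist had no peak in any library, and this mark gives no check of the deletion.

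H3K27me3 is written by Polycomb repressive complex 2 and lies over silent genes, in broad blankets on the inactive X chromosome. Smchd1 is a chromatin protein of the structural maintenance of chromosomes family that takes part in silencing the inactive X and several gene clusters. Rhox genes encode homeobox transcription factors of testis, epididymis, ovary and placenta. Magea and Mageb genes encode MAGE proteins, which partner ubiquitin ligases, and are known in people as cancer-testis antigens because tumours switch them on. Xlr and Slx proteins are relatives of Sycp3, a protein of the meiotic chromosome axis. In somatic tissues such as brain these genes are mostly silent, and methylation of DNA at their promoters is the best studied layer of that silence.

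For each gene the percent of its window, the gene body with 2.5 kb beyond both annotated ends, that lay in peaks was measured. Peaks were present at 57 of the 60 genes, in all 4 libraries at 51. Among the 906 other X-linked protein-coding genes these counts were 780 and 703. Over all 34614 protein-coding and lncRNA genes they were 11341 and 5618. Over all 60 windows cover was 57.0% and 61.8% for del/del against 36.8% and 41.1% for del/fl. The genotypes did not overlap, with a difference of 20.5 percentage points (exact two-sided permutation test p = 0.333, the smallest that 2 against 2 libraries allow). Gene by gene, the del/del mean was the higher at 53 and the lower at 2. It was higher at 733 and lower at 21 of the other X-linked genes, and higher at 5033 and lower at 6013 of all genes. At 48 genes the lower del/del value exceeded the higher del/fl value, here called higher without overlap, and at 0 genes the reverse held. Higher without overlap were 4.37% of all 34614 protein-coding and lncRNA genes in the table and 68% of the 906 other X-linked protein-coding genes, and lower without overlap were 4.59% and 0.331%. The 48 of 60 therefore read against the chromosome, not the genome. Summed over their windows, the other X-linked genes had 72.6% and 77.7% for del/del against 51.8% and 57.2% for del/fl. The members' cover minus that of the other X-linked genes differed by -0.21 points between genotypes (exact permutation p = 1.0). Long genes weigh most in these sums, and Mageb18 alone makes up 485694 of the members' 1281143 bp. Within 2.5 kb of the gene ends alone, the members had 74.4% and 75.4% for del/del against 53.5% and 61.1% for del/fl. There the other X-linked genes had 67.3% and 71.0% against 49.5% and 55.5%, so the members' level was the higher.

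limma, fitted over 11341 genes with a peak, called 0 of the 57 tested members at an adjusted p of 0.05, and 0 genes in all (0% in the background). At an unadjusted p under 0.05 there were 27 members higher and 0 lower. Among all genes tested 6.11% were higher and 2.26% lower by that measure, and among the other X-linked genes 55.8% and 0.128%. Fitted to X-linked genes alone, limma called 17 of 57 members higher, beside 28.7% of all 1080 genes in that fit and 29.9% of the other X-linked protein-coding ones. Mageb17-ps, Magea6 and Magea1 were gained, with peaks in every del/del and no del/fl library, at any site in the window. The same held for 0.644% of all genes and 2.21% of the other X-linked ones. No member was lost, the reverse case, against 0.728% and 0.11%.

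**Figure D1:**
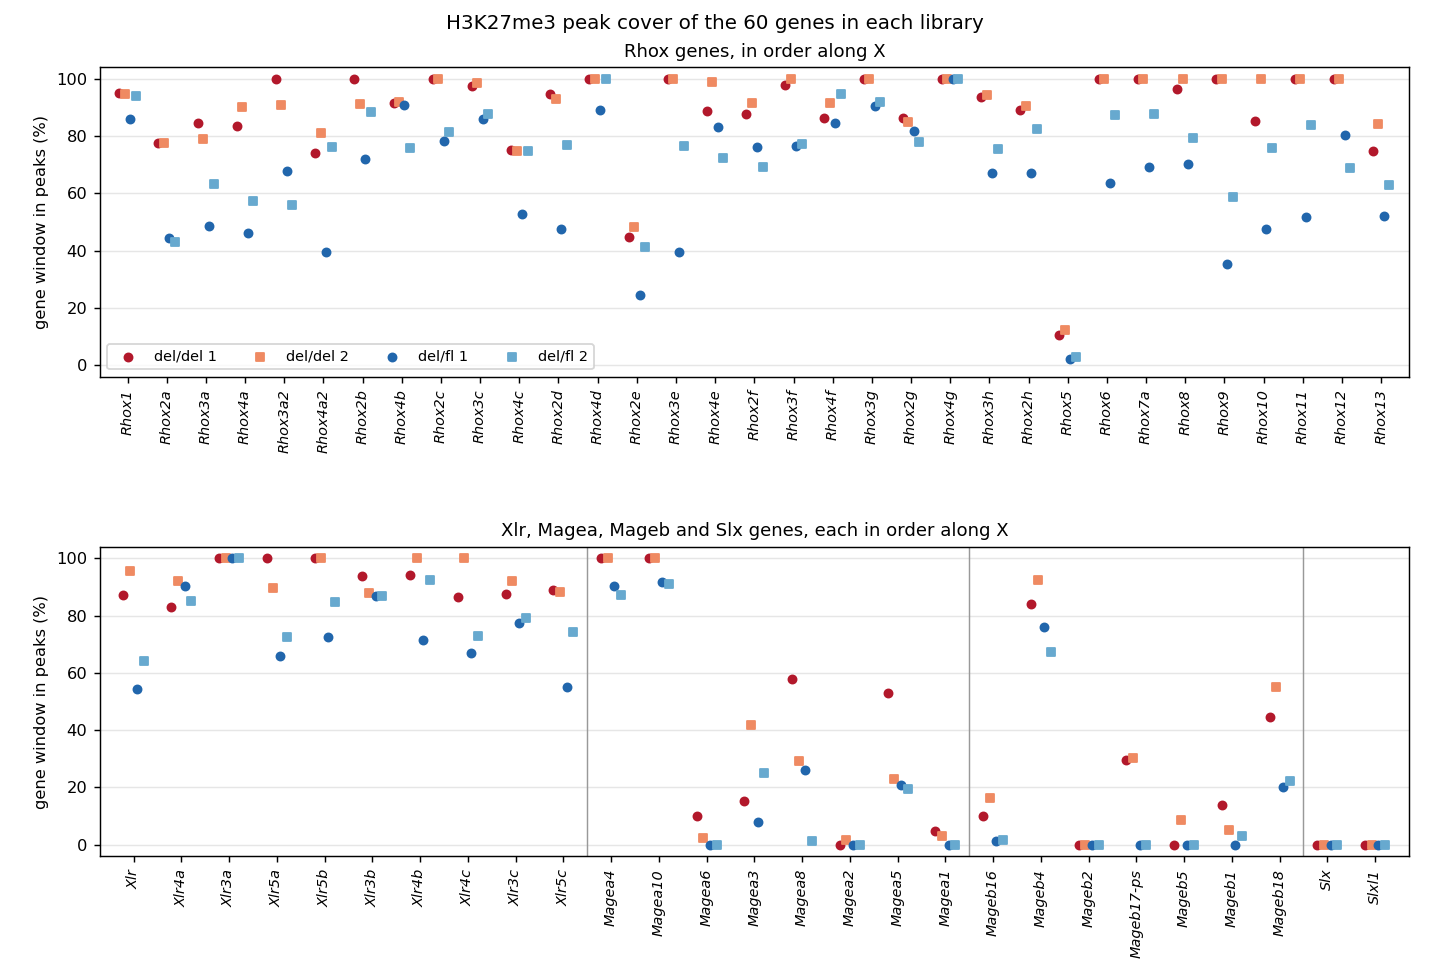
Percent of each gene window in H3K27me3 peaks (y axis) for the 60 genes (x axis), 1 point per library, with del/del in red and orange and del/fl in blues. The Rhox and Xlr genes sit high in all libraries with del/del mostly above del/fl, Rhox4g and Xlr3a are at 100% throughout, and the Magea6 to Magea1 and Mageb genes are lower except Mageb4, with Slx and Slxl1 at 0.

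The Rhox cluster runs for 916 kb, chrX:37213804-38129966, and 29 of its 33 genes were higher without overlap in del/del. So were 68% of the other X-linked protein-coding genes and 4.37% of all genes. Cover of all Rhox windows was 78.6% and 80.1% for del/del against 56.5% and 65.4% for del/fl. The means were 79.4% ± 1.08 for del/del against 60.9% ± 6.28 for del/fl (SD, n = 2 each), so the del/fl libraries differed from each other more than the del/del ones did (exact permutation p = 0.333). Peaks merged into longer blocks: 37 and 33 peaks of median length 9282 and 11239 bp touched the windows in del/del, and 84 and 65 peaks of median length 1973.5 and 3643 bp in del/fl. Fewer and longer peaks went with the greater cover.

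The cluster has 3 stretches along X. Rhox1 and 23 genes named Rhox2, Rhox3 and Rhox4 with a letter, which are tandem copies of a 3-gene unit, fill its proximal part. Rhox5 to Rhox9 follow, and Rhox10 to Rhox13 close the cluster on the distal side. This division was made with the values in view, so its values are a description. Cover was 88.7% and 89.4% for del/del against 67.3% and 75.6% for del/fl over the Rhox2 to Rhox4 copies. In the same order of libraries it was 49.9% and 51.5% against 29.3% and 36.6% over Rhox5 to Rhox9, and 89.8% and 95.5% against 57.7% and 72.9% over Rhox10 to Rhox13. None of these stretches overlapped between the genotypes.

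Rhox9, also known as Psx2 and expressed in placenta and germ cells, had the largest difference of all 60 genes. Its window (chrX:37899097-37901770 for the gene) was covered 100% and 100% for del/del against 35.3% and 58.6% for del/fl (difference 53.1 points, SE 9.52, limma adjusted p = 0.383). Rhox6, known as Psx1 and expressed in the placenta, was covered 100% and 100% for del/del against 63.5% and 87.4% for del/fl. Both genes were full in del/del and partly covered in del/fl, where replicate 2 was well above replicate 1. Rhox11, expressed in testis, was covered 100% and 100% for del/del against 51.6% and 83.9% for del/fl.

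Of the other genes outside the tandem copies, Rhox10, known for its part in setting up spermatogonial stem cells, was covered 85.3% and 100% for del/del against 47.6% and 75.7% for del/fl. Rhox13, expressed in testicular germ cells, was covered 74.7% and 84.3% for del/del against 52.2% and 63.1% for del/fl. Rhox8, also called Tox and expressed in Sertoli cells, was covered 96.4% and 100% for del/del against 70.3% and 79.3% for del/fl. These 3 were apart by genotype as well. Rhox1, at the proximal edge of the cluster, was covered 94.9% and 94.8% for del/del against 85.9% and 93.9% for del/fl, so its higher del/fl value came near the del/del values.

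Among the tandem copies, Rhox3e was covered 100% and 100% for del/del against 39.7% and 76.7% for del/fl. Rhox4a, of the type first described as Ehox in embryonic stem cells, was covered 83.3% and 90.3% for del/del against 46.3% and 57.3% for del/fl. At Rhox2a cover was 77.5% and 77.5% for del/del against 44.5% and 42.9% for del/fl. In all 3 the groups were apart, most evenly at Rhox2a (difference 33.8 points, SE 3.22, limma adjusted p = 0.376). Rhox3a2 was covered 100% and 90.8% for del/del against 67.7% and 56.0% for del/fl. Some copies did not differ in this way: Rhox4g was at 100% in all 4 libraries, and Rhox4f, at 86.3% and 91.6% for del/del against 84.6% and 94.6% for del/fl, overlapped between the groups.

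Rhox5, first described as Pem and the founding member of the family, expressed in the Sertoli cells that nurse sperm, was the least covered Rhox gene. Its annotated body spans 54271 bp (chrX:37754608-37808878), and cover of the window was 10.7% and 12.3% for del/del against 2.05% and 2.87% for del/fl (difference 9.06 points, SE 1.89, limma adjusted p = 0.419). Peaks sat only at its ends. At the 5′ start a single short peak of 646 and 877 bp stood in the del/del libraries and one of 1001 bp in del/fl replicate 1, with none in del/fl replicate 2. The others began 50.269 kb or more from the start. Between them 50.2 kb of the body had no peak in any library, and a further 50.4 kb upstream and 100.4 kb between Rhox4a and Rhox3a2 were bare as well. Whether tags can be placed in these stretches was not tested.

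**Figure D2:**
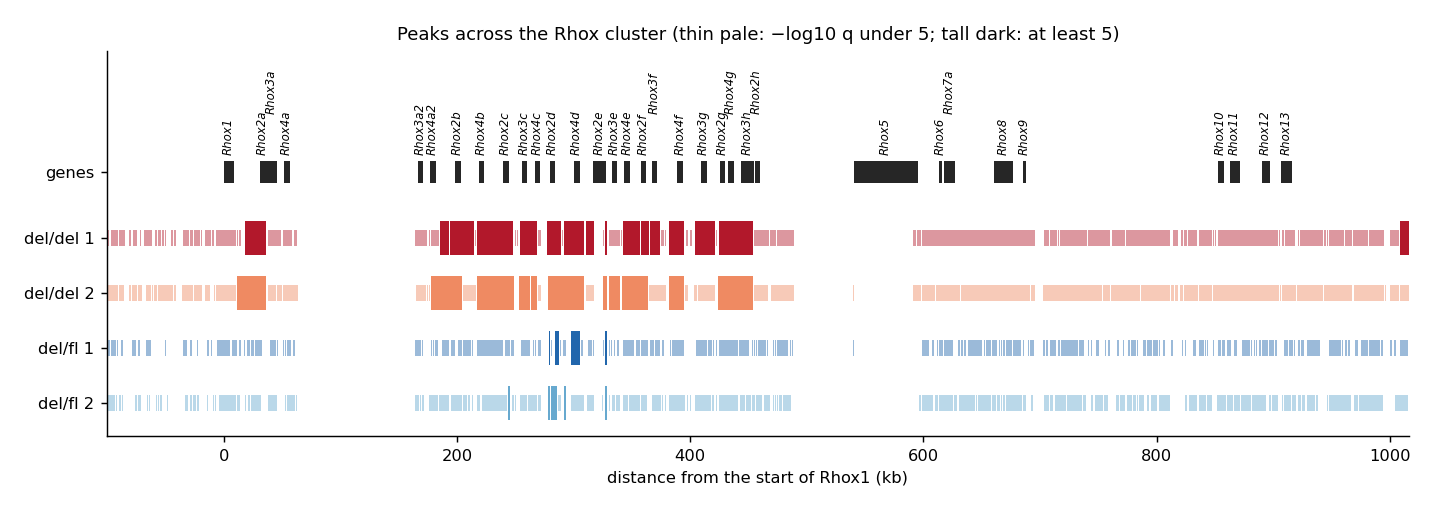
Peaks over the Rhox cluster and 100 kb on each side, by distance in kb from the start of Rhox1 (x axis), with 1 row per library and genes as black boxes. Thin pale bars are peaks with −log10 q under 5 and tall dark bars those of at least 5. Within the cluster span the tall bars lie over and between the Rhox2 to Rhox4 copies, cover most of them in both del/del libraries and only short stretches in del/fl, and are absent over Rhox5 to Rhox13.

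Peak strength set the tandem copies apart from the rest of the family. The authors' −log10 q grades how far a peak stands above the background of its own library, and peaks of at least 5, here called stricter, were looked at separately. Over the Rhox2 to Rhox4 copies stricter peaks covered 64.4% and 62.3% for del/del against 5.301% and 4.97% for del/fl. The genotypes were far apart. Both del/del libraries had such a peak at 17 of the 23 copies, whereas Rhox1 and Rhox5 to Rhox13 had none in any library. By type, the 8 Rhox2 copies were covered 71.4% and 68.0% against 5.98% and 13.5%, the 7 Rhox3 copies 55.9% and 43.3% against 0% and 0% and the 8 Rhox4 copies 62.9% and 72.9% against 8.93% and 0%. In del/fl the stricter cover came from Rhox2c, Rhox2d, Rhox2e and Rhox4d.

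The fold enrichment deposited for the peaks gave the same order. Averaged over covered bases it was 4.87 and 4.87 for del/del against 4.05 and 4.05 for del/fl at the Rhox2 to Rhox4 copies. It was 4.28 and 4.09 against 3.64 and 3.55 at Rhox5 to Rhox9, and 4.13 and 4.01 against 3.71 and 3.62 at the other X-linked genes. The tandem copies were highest within each library, and each set of genes was higher in del/del without overlap. Relative to the genome average, the local background recovered from pileup and fold was 1.24 and 1.24 for del/del against 1.22 and 1.199 for del/fl at the copies and 1.15 and 1.15 against 1.14 and 1.13 at the other X-linked genes, slightly higher in del/del in both sets. How tags that match several copies were placed is not given in the sources used here, and values of single copies are uncertain for that reason.

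The promoters show how alike the copies are. RefSeq gives 300 bases around the start of 52 of the 60 genes, 250 before and 50 after it. Each was searched for runs of 70 bases, about the length of a tag, that also occur in the promoter of another X-linked gene. At Rhox2a such runs begin at 100% of positions and are found in Rhox2b, Rhox2c, Rhox2e and Rhox2g, while Rhox5 has none. The promoter of Rhox2a (chrX:37244742-37245041, plus strand) was covered by peaks at 100% in all 4 libraries, by stricter peaks at 100% in both del/del and 0% in both del/fl libraries. The promoter of Rhox5 (chrX:37754358-37754657, plus strand) was covered 76.0% and 94.3% for del/del against 84.0% and 0% for del/fl, by no stricter peak. The 2 sequences are shown for this contrast, from RefSeq (GRCm38.p6), 5′ to 3′ on the strand of the gene, with CpG dinucleotides, the sites of DNA methylation, in capitals; there are 8 in Rhox2a and 5 in Rhox5.
Rhox2a: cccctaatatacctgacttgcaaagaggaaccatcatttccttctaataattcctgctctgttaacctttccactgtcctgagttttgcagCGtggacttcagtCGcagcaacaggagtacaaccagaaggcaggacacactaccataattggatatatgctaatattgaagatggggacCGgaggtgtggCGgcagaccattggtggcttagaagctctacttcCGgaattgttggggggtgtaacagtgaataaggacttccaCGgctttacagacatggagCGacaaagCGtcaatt
Rhox5: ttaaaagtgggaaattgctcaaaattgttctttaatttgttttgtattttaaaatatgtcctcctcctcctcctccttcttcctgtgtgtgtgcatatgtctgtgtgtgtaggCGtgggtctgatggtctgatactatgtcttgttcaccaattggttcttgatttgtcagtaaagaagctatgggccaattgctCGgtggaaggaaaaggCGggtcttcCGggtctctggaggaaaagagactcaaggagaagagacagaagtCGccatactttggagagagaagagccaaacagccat

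The Rhox4 copies carry a further shared element. The 6 letters CACGTG, the same on both strands and known as an E-box that basic helix-loop-helix factors can bind, are in 5 of the 7 Rhox4 promoters in the table, at Rhox4a2, Rhox4b, Rhox4e, Rhox4f and Rhox4g, and not at Rhox4a or Rhox4c. Of all 32851 promoters of this length 7.15% hold it. None of the other 45 member promoters does. The stretches are printed with 20 bases on each side and the motif in capitals, to show that the flanks are shared as well. Their positions are chrX:37390611-37390656, plus strand, chrX:37432250-37432295, plus strand, chrX:37557196-37557241, plus strand, chrX:37607877-37607922, minus strand and chrX:37651495-37651540, minus strand.
Rhox4a2: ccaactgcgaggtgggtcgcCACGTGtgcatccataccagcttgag
Rhox4b: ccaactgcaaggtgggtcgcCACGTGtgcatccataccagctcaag
Rhox4e: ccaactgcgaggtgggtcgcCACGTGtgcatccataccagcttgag
Rhox4f: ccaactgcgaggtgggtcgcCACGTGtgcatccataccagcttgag
Rhox4g: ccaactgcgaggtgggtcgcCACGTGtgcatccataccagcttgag

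The stretches of Rhox4a2, Rhox4e, Rhox4f and Rhox4g are the same 46 letters. A match of letters says nothing about binding. Stricter peaks covered the whole promoter in both del/del libraries at Rhox4b, Rhox4e, Rhox4f and Rhox4g, which hold the motif, and at Rhox4c, which does not, and none of it at Rhox4a2 and Rhox4a.

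The Xlr genes were the most covered family. Cover was 91.9% and 94.5% for del/del against 72.5% and 79.9% for del/fl, with means of 93.2% ± 1.797 for del/del against 76.2% ± 5.18 for del/fl (SD, n = 2 each), again without overlap (exact permutation p = 0.333). Of 10 genes 8 were higher without overlap and 0 lower. Among the other X-linked protein-coding genes these shares were 68% and 0.331%, and among all genes 4.37% and 4.59%. Xlr, the founding gene, expressed in lymphocytes and meiotic cells, lies alone, far proximal of the others (chrX:53777118-53797716). It had the largest difference of the family, with 87.2% and 95.7% for del/del against 54.3% and 64.0% for del/fl (difference 32.3 points, SE 5.77, limma adjusted p = 0.382), and no stricter peak.

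The other 9 genes form a block of 220 kb, chrX:73074343-73293863, that alternates Xlr3, Xlr4 and Xlr5 copies. Xlr3b, Xlr4b and Xlr4c are known in mouse brain as imprinted genes expressed from the maternal X. Xlr3b was covered 93.7% and 87.9% for del/del against 86.9% and 86.9% for del/fl. Cover of Xlr4b was 94.3% and 100% for del/del against 71.6% and 92.4% for del/fl. For Xlr4c it was 86.4% and 100% for del/del against 66.8% and 72.7% for del/fl. The groups were apart at all 3, narrowly at Xlr3b. The values are not split by parent, so which X carried the mark was not analysed here.

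Of their neighbours, Xlr3c was covered 87.5% and 91.9% for del/del against 77.4% and 79.3% for del/fl, and Xlr3a at 100% in every library. Xlr4a was covered 82.9% and 92.0% for del/del against 90.4% and 85.2% for del/fl, so its libraries overlapped. The Xlr5 copies had more room: Xlr5a was covered 100% and 89.6% for del/del against 65.8% and 72.5% for del/fl. At Xlr5b cover was 100% and 100% for del/del against 72.4% and 84.8% for del/fl, and at Xlr5c 88.9% and 88.2% for del/del against 55.0% and 74.4% for del/fl. All 3 Xlr5 genes had every del/del value above every del/fl value.

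Stricter peaks covered most of the block in del/del and little of it in del/fl. Over the 9 windows they took up 85.7% and 92.9% for del/del against 9.51% and 10.1% for del/fl. The Xlr4 copies held nearly all of it in del/fl, 31.7% and 33.5% of their windows, from Xlr4b and Xlr4c, while the Xlr3 and Xlr5 copies had 0% there. In del/del the Xlr3 copies reached 81.6% and 93.3%, the Xlr4 copies 78.4% and 97.4%, and the Xlr5 copies 96.4% and 89.0%. These peaks reached a little beyond the first and the last gene on either side. The mean fold enrichment was 5.21 and 5.09 for del/del against 4.36 and 4.28 for del/fl, above that of the other X-linked genes in each library.

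**Figure D3:**
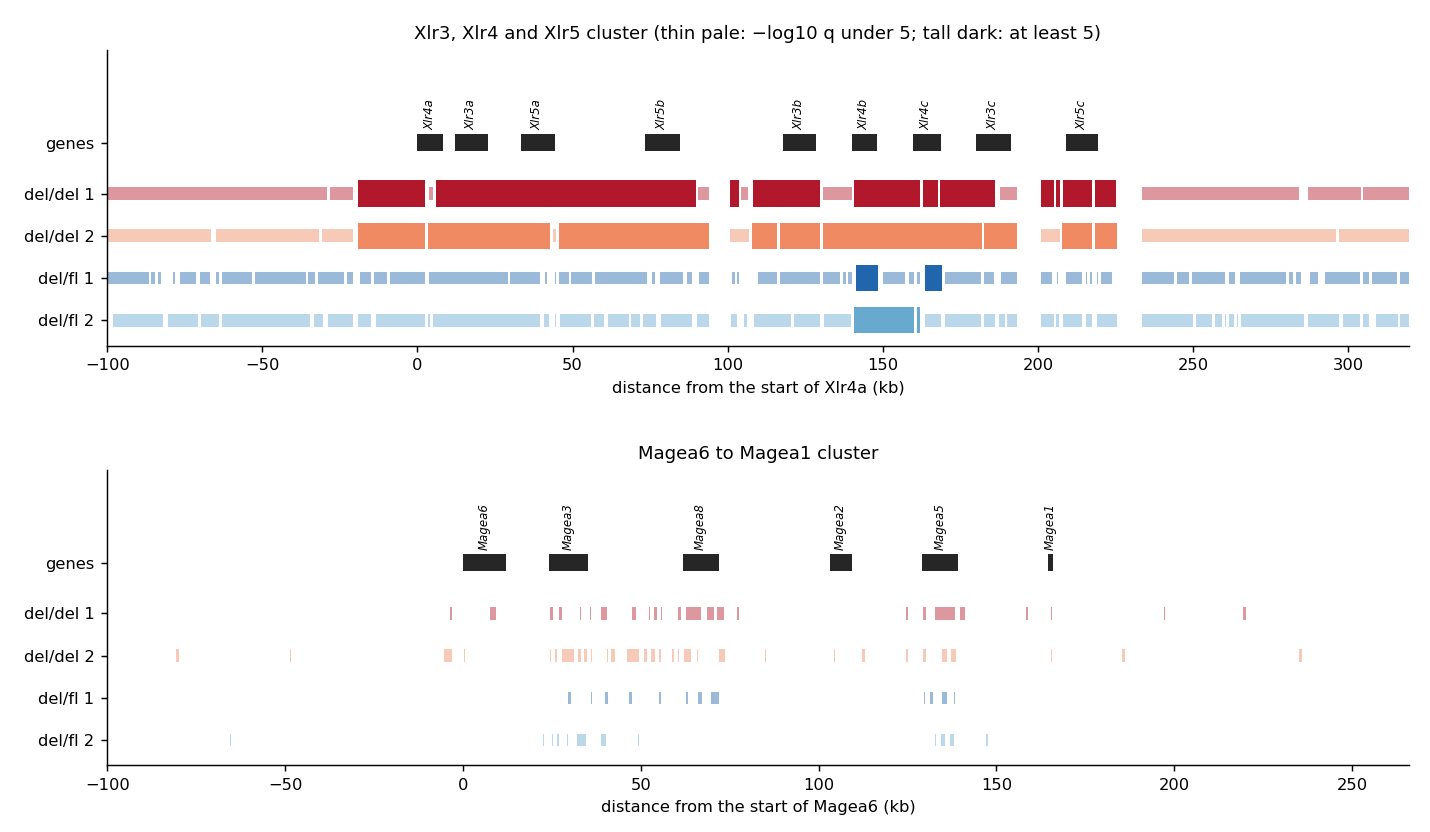
Peaks over the Xlr3, Xlr4 and Xlr5 block (top) and the Magea6 to Magea1 cluster (bottom), each with 100 kb on both sides, by distance in kb from the first gene's start (x axis) and with 1 row per library. Thin pale bars are peaks with −log10 q under 5 and tall dark bars those of at least 5. Tall bars cover most of the Xlr block in both del/del libraries and lie only at Xlr4b and Xlr4c in del/fl, and the Magea cluster has scattered thin bars only.

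The promoters of Xlr3a and Xlr5a are shown because these neighbours differ in how much they share with copies and both lay wholly in stricter peaks in del/del replicate 1, Xlr3a also in replicate 2. Xlr5a (chrX:73117653-73117952, minus strand) has 16 CpG sites, the most of the 52 promoters beside the equal count in Xlr5b, with which it shares 70-base runs at 80.5% of positions. Xlr3a (chrX:73097046-73097345, minus strand) has 5 and shares none. Deposited peaks covered the Xlr3a promoter fully in all 4 libraries and the Xlr5a promoter 100% and 12.7% for del/del against 0% and 0% for del/fl. CpG sites are in capitals.
Xlr3a: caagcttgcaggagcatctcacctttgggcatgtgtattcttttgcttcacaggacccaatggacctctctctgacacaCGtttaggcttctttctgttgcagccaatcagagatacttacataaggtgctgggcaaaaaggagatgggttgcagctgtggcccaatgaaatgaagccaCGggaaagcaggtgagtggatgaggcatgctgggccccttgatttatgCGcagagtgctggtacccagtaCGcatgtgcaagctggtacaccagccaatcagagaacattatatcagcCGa
Xlr5a: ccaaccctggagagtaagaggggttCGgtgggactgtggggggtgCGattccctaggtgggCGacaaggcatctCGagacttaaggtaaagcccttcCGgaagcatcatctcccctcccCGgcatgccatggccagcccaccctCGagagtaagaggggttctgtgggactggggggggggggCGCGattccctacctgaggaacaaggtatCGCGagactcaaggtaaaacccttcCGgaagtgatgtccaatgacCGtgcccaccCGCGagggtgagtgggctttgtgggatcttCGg

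The Magea family split into a densely and a sparsely covered part. Over all 8 genes cover was 39.0% and 33.1% for del/del against 24.4% and 22.8% for del/fl (exact permutation p = 0.333). Magea4 and Magea10, which together span 166 kb proximal of the Xlr block, belong to the dense part. Magea4 was covered 100% and 100% for del/del against 90.2% and 87.0% for del/fl. Magea10 was covered 100% and 100% for del/del against 91.9% and 91.2% for del/fl. Both were full in del/del and close to full in del/fl. The 6 genes Magea6, Magea3, Magea8, Magea2, Magea5 and Magea1, at chrX:154923895-155089790, had 26.2% and 19.0% for del/del against 10.3% and 8.82% for del/fl over their windows. They lay apart by genotype as well, at a level far under that of the other X-linked genes.

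Magea8 was covered 57.8% and 29.1% for del/del against 26.0% and 1.28% for del/fl, and Magea5 52.9% and 22.9% for del/del against 20.8% and 19.5% for del/fl. In both the lower del/del value was close to the higher del/fl value, and the del/del libraries differed widely from each other. Magea3, at 15.2% and 41.9% for del/del against 7.904% and 25.1% for del/fl, overlapped between the groups. The gains at Magea6, with 9.98% and 2.46%, and at Magea1, with 4.67% and 3.06% in del/del, were small parts of the windows. At Magea6 the del/del libraries had no covered base in common. The peak lay at -7.21 to -5.496 kb from the start at its promoter in replicate 1 and at 1.499 to 1.92 kb in replicate 2. Magea2 had one peak in del/del replicate 2, over 1.73% of its window. No Magea window held a stricter peak in any library, and the mean fold over the peaks of the 6 genes was 2.91 and 3.06 for del/del against 3.05 and 2.897 for del/fl, with overlapping genotypes.

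The Mageb genes had the lowest cover of the families with peaks in del/fl, 40.5% and 50.3% for del/del against 18.6% and 20.2% for del/fl (exact permutation p = 0.333). This sum is mostly 1 gene. Mageb18, annotated over 480694 bp (chrX:92118879-92599572), was covered 44.5% and 55.2% for del/del against 20.2% and 22.3% for del/fl (difference 28.6 points, SE 5.29, limma adjusted p = 0.392). Its cover fell along the gene from the first 120 kb at the 5′ end, with 75.7% and 82.9% for del/del against 49.5% and 41.8% for del/fl, to the last 120 kb, with 14.7% and 23.8% against 0.819% and 1.29%. The genotypes did not overlap in these or in the stretches between.

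The smaller Mageb genes ranged from bare to dense. Mageb4, expressed in testis, was covered 84.1% and 92.5% for del/del against 76.0% and 67.3% for del/fl, and Mageb16 10.2% and 16.4% for del/del against 1.32% and 1.72% for del/fl. Both stood apart by genotype, Mageb16 from a nearly bare level. Mageb17-ps gained a peak over 29.5% and 30.3% of its window, against 0% in both del/fl libraries (difference 29.9 points, SE 2.34, limma adjusted p = 0.376). Mageb1 was covered 13.8% and 5.14% for del/del against 0% and 3.14% for del/fl. Mageb5 had a peak in del/del replicate 2 alone, over 8.47% of the window, and Mageb2 had none in any library.

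Mageb17-ps was the member gained with the largest cover, and its promoter is printed for that reason. The promoter is at chrX:91625103-91625402, plus strand, and peaks covered it 0% and 100% for del/del against 0% and 0% for del/fl. The peaks of the del/del libraries overlapped only in part. In replicate 1 the peak began 143 bp after the start, so the promoter lay in a peak in replicate 2 alone. It holds 2 CpG sites, in capitals, and no 70-base run shared with another X promoter.
Mageb17-ps: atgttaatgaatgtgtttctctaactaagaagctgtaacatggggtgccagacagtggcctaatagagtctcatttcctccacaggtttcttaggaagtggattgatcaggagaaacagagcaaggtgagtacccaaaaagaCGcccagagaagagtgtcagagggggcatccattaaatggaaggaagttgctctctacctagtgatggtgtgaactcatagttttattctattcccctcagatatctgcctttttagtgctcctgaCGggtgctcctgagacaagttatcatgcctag

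Slx and Slxl1, which act in round spermatids and are known as rivals of the Y-linked Sly genes, had no peak in any library. Their surroundings were nearly bare too: the 500 kb on each side of Slx were covered at most 0.228%, and those around Slxl1 at most 4.81%, both in del/del replicate 2. Both genes belong to X regions amplified into many copies. The Slxl1 promoter (chrX:55226626-55226925, plus strand) shares 70-base runs at 69.3% of its positions with 10 other X promoters, all of predicted genes with Gm symbols, more than any other member. It is shown as the most repeated promoter among the members, with CpG sites in capitals. Whether tags of such copies were kept is not given in the sources used here, and the part of this in the empty windows was not tested.
Slxl1: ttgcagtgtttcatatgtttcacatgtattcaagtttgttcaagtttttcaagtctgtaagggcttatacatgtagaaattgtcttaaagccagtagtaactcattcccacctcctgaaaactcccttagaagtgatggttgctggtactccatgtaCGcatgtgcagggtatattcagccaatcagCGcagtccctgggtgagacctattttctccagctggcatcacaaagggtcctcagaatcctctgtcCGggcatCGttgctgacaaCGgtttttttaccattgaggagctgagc

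The families thus differed in level and in strength far more than in the direction of the genotype difference, which was upward in del/del in the 4 families with peaks. Both del/del libraries had a stricter peak at 26 of the 60 genes, 17 Rhox and 9 Xlr, against 4.87% of all genes and 8.94% of the other X-linked protein-coding genes. At 20 members no del/fl library had one, against 0.283% of all genes and 5.3% of the other X-linked ones. All these members lie in the Rhox cluster or the Xlr block, where 1 peak can reach several genes. In del/del replicate 1 a peak of 83692 bp reached Xlr4a, Xlr3a, Xlr5a and Xlr5b. The counts of 26 and 20 are therefore not counts of separate cases. Strong del/del peaks were not particular to these families. Of 36 other X-linked genes of the germ line or testis, 7 had a stricter peak in both del/del libraries, 3 of them with none in del/fl. Member windows held 4.36% and 6.68% of all stricter-peak bases on X in del/del, and 0.884% and 0.866% of the bases of all deposited peaks. In del/fl the stricter share was 3.48% and 3.50%. With stricter peaks limma called 17 of the 31 members it could test, beside 2.75% of all 2439 genes in that fit and 16.7% of the other X-linked ones. A gene enters that fit only through a stricter peak, most often in del/del, so this count is not support for a difference.

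**Figure D4:**
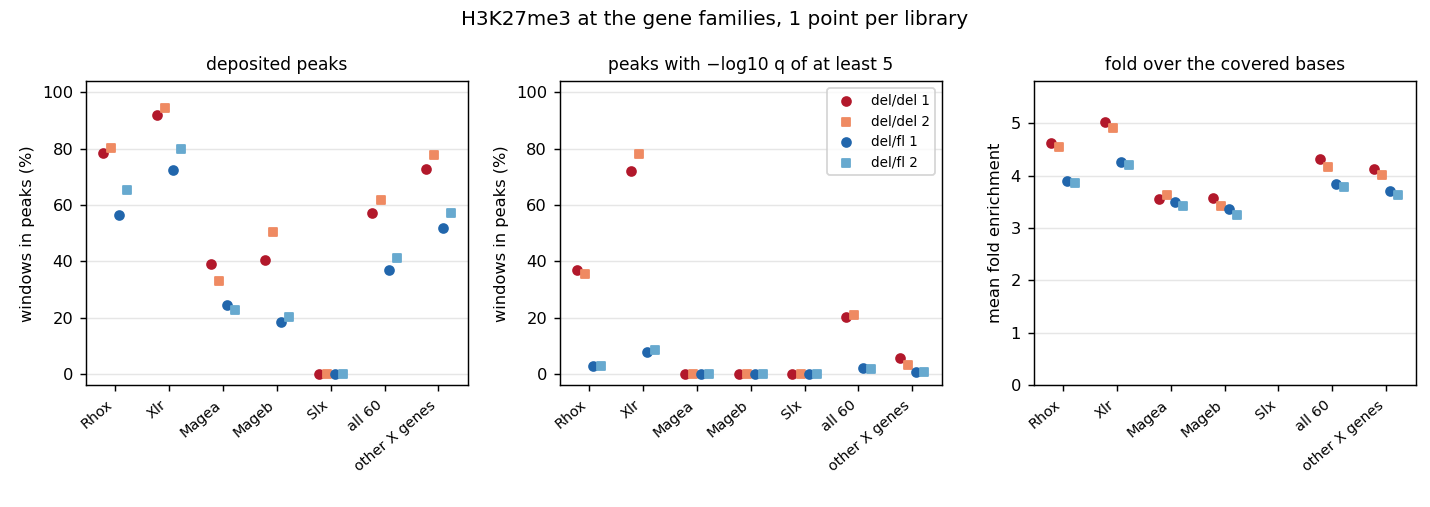
Cover of the summed windows of each family by deposited peaks (left) and by peaks with −log10 q of at least 5 (middle), in percent, and the mean fold enrichment over covered bases (right), with 1 point per library. Rhox and Xlr windows hold nearly all of the members' stricter cover, most of it in del/del, while Magea, Mageb and Slx windows are at or near 0.

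Set against the other X-linked genes, the size and even the sign of the families' difference depended on the threshold. The genotype difference at the members minus that at the other X-linked genes was -0.21 points with all deposited peaks, -22.7 with peaks of −log10 q of at least 3, -6.66 at 4, 14.9 at 5 and 13.7 at 6. At 2 the genotype difference was 22.3 points at the members and 27.1 at the other X-linked genes. At 7 it was 4.58 and 0.341 points, when peaks covered 5.35% and 4.80% of the member windows in del/del. Thresholds of 2, 3, 4, 6 and 7 were added after the data were seen. At 3 the other X-linked genes had 62.6% and 62.3% against 17.9% and 13.6%, sparse in del/fl and well covered in del/del, while the Xlr3 to Xlr5 genes still had 92.8% and 94.2% against 69.1% and 75.2%. At 5 the other X-linked genes were down to 5.68% and 3.38% against 0.865% and 0.8205%. The tandem arrays lost cover at a higher threshold than other X-linked genes in both genotypes. The members' difference minus that of the other X-linked genes reached p = 0.333 in the exact permutation test at 3, 4, 5 and 6. It did not with all peaks, and 0.333 is the smallest possible. At 2 and 7 it was not tested.

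**Figure D5:**
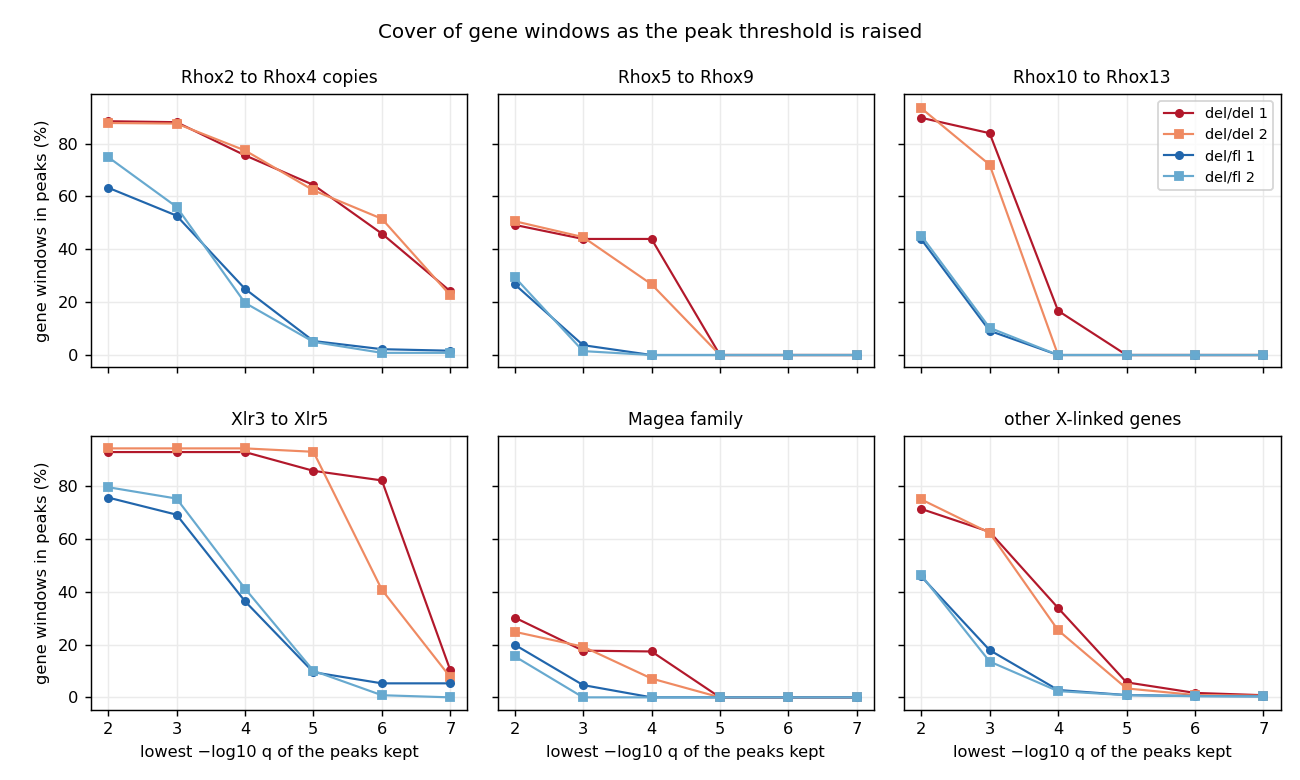
Percent of summed gene windows in peaks (y axis) as only peaks of at least a given −log10 q are kept (x axis), for 5 sets of members and the other X-linked genes, 1 line per library. The del/del lines of the Rhox2 to Rhox4 copies are still at 45.9% and 51.6% at a threshold of 6 and those of Xlr3 to Xlr5 at 82.1% and 40.7%, when the other X-linked genes are at 1.68% and 0.89%.

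The clusters sat in surroundings of unlike cover. The Rhox span was covered 68.0% and 70.3% for del/del against 46.0% and 54.1% for del/fl, the 500 kb proximal of it 73.5% and 82.9% against 36.9% and 49.3%, and the 500 kb distal of it 88.4% and 91.5% against 60.3% and 67.8%. Distal of the cluster, stricter peaks also covered 29.6% and 25.9% in del/del and 0% in both del/fl libraries, so they were not limited to the tandem genes there. The Xlr block was covered 87.2% and 89.5% for del/del against 72.3% and 78.3% for del/fl, its proximal flank 81.2% and 84.0% against 68.0% and 73.3% and its distal flank 93.7% and 95.3% against 76.1% and 83.9%. By stricter peaks the block was covered 77.5% and 83.4% for del/del against 5.83% and 9.17% for del/fl, its proximal flank 14.3% and 3.86% against 0.701% and 0% and its distal flank 4.89% and 6.99% against 0% and 0%. Deposited cover thus ran on at a like level past the block, whereas stricter cover dropped at its edges.

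Around the sparse genes the chromosome was sparse as well. The Magea6 to Magea1 span was covered 16.5% and 14.9% for del/del against 6.62% and 5.505% for del/fl, and the 500 kb proximal of it at most 0.669% in any library. The Mageb2 to Mageb18 span was covered 17.8% and 23.8% for del/del against 7.75% and 8.71% for del/fl, with at most 1.55% in any library on the proximal side. On the distal side, next to the 5′ end of Mageb18, cover rose to 74.9% and 80.5% for del/del against 42.5% and 45.9% for del/fl. The span from Magea4 to Magea10 was covered 93.7% and 96.3% for del/del against 74.5% and 73.9% for del/fl. Every cluster span with peaks except that of Mageb4, whose gene body overlapped between the groups, was higher without overlap in del/del.

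Across the 52 promoters, 42 touched a peak in each del/del library and 26 in each del/fl library. The same counts were not made over other X promoters, so they are not a result about the members. The median CpG count was 6, against 7 over all promoters in the table. Of 21 promoters sharing 70-base runs at 50% or more of positions, 14 belonged to genes with a stricter peak in each del/del library. Of 13 with some shared runs below that, 8 did, and of 18 without any, 2 did, Xlr3a and Xlr5c. Copies share sequence and lie in the same clusters, so these counts describe the arrays and are not independent. Among the promoters with shared runs, those of Slx, Slxl1, Mageb5, Rhox4a, Rhox3a2, Xlr, Magea8 and Magea2 belonged to genes with no stricter peak in any library.

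As a rough check of the labelled cell type, 8 of 10 neural stem cell markers, Sox2 and Nes among them, had no peak in any library. Pax6 and Msi1, which make up the rest, were covered at most 6.41%. Of all 34614 protein-coding and lncRNA genes, 23273 had no peak in any library, so the 8 of 10 give little check of the label. Germ cell and pluripotency markers (Ddx4, Dazl, Dppa3, Pou5f1 and Nanog) had no peak either, so absence of the mark does not by itself show that a gene was active. Peaks were present at 4 of 6 neuronal, 2 of 5 microglia and blood and 3 of 4 fibroblast and endothelial markers, beside 11341 of all 34614 genes. Dcx, an X-linked marker of young neurons, was covered 94.8% and 98.9% for del/del against 92.0% and 96.0% for del/fl. The part of other cell types in the values above was not tested.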

How the data were processed

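Peak lists of 4 H3K27me3 libraries were analysed, with the 4 whole-cell extract samples entering only as their controls. Per the submitters' processing notes, bcl2fastq and Bowtie 0.12.9 were used with mm10. Per the file headers, MACS2 2.1.0.20140616 called broad peaks per sample with a q-value threshold of 0.05. The larger of sample and control was down-sampled, and 1 tag was kept per position. The part of copies collapsed in the assembly in the strength of peaks was not tested. Each deposited peak carries the authors' own values: a pileup, which is a signal of stacked tags, and a p-value and a q-value on the −log10 scale. The largest q-value in the lists was 0.0983, above the 0.05 of the headers. Fold enrichment, as deposited, divides the pileup by the local background, per the file headers.

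Covered percents were computed with numpy 2.4.6 and pandas 2.3.3 under Python 3.11.15, tested with scipy 1.17.1, drawn with matplotlib 3.10.9, and compared over all genes with limma 3.58.1 in R 4.3.3 (variance trend, robust fit, Benjamini-Hochberg, genes with a peak in any library), and otherwise by exact two-sided permutation of libraries. The code was tested on simulated data. Background was recovered as (pileup + 1) / fold − 1. Named were members called, gained or lost, up to 6 per family by difference, the highest and lowest of each family and the best known members. Alternatives were peaks with a −log10 q of 5 or more, lists cut to equal length, other windows, merging across 3 kb, other scales, variances and filters, a replicate block, other cluster gaps and leaving out each library. The members and lists were chosen with earlier results of these data known. Separate embryos are not stated for the libraries, and p-values therefore cover only the spread among these samples. Tag totals limit precision to counting error at best, and allele-specific signal was not analysed here. The astrocyte and oligodendrocyte marker list is not reported here.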

Additional observations from a re-analysis of the deposited data

How the results depend on the processing

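Of the 183 alternative values computed, 162 kept their direction and their side of the threshold, or stayed within 1.5 times for counts. Some of them could not move, such as cover differences with the replicate block and Slx cover with fewer peaks. With stricter peaks 17 members were called by limma, 20 gained, 1 lost and 26 higher without overlap, the Magea difference was 0 points, the Mageb difference -0.1001, the Mageb2 to Mageb18 span -0.0455 and the Magea6 to Magea1 span 0. The members minus the other X-linked genes came to 14.9 points with stricter peaks, 13.7 at a threshold of 6, 0.957 at gene ends alone, 0.212 over gene bodies alone and 4.37 with peaks merged across 3 kb. Merging also left 16 members higher without overlap, lists of equal length left 1 gained, X-linked genes fitted alone gave 17 called, and a cluster gap of 200 kb gave 0 points for the Mageb2 to Mageb18 span because that cluster then falls apart. The cause was not tested for the others.

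Leaving out 1 library gave 0 to 14 members called (the lone library then being assumed to vary like the others), 3 to 5 gained and 48 to 53 higher without overlap. Without del/del replicate 1, 7 of 57 members were called higher, and so were 1532 of all 11341 genes, with 41 lower. Without del/fl replicate 1 it was 14 members, with 207 of all genes higher and 1536 lower. The members' difference ran from 18.1 to 22.8 points, and that minus the other X-linked genes from -0.778 to 0.355. The fit without a filter on low values could not be fitted. The libraries of the 2 genotypes share only a replicate number: their same-numbered deviations correlated at 0.187 over 11341 genes and 0.0825 over X-linked genes. With the replicate block 0 members were called and 50 were higher in both pairs. The members' difference stayed at 20.5 points, which a block cannot change when each replicate number holds 1 library of each genotype.

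With 2 libraries per genotype an exact p cannot go under 0.333. Cover counts bases above a threshold that depends on depth, cannot exceed 100% (14 members are full in both del/del libraries and 2 in both del/fl libraries) and does not measure the amount of the mark. Copies too alike to tell apart by their tags are uncertain one by one.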

Other observations

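Of 36 other X-linked genes of the germ line or testis in the table, 34 had a peak, and 23 were higher without overlap in del/del and 1 lower, beside 68% of the other X-linked protein-coding genes higher. The median difference was 15.2 points, beside 15.8 points for the 60 members and 15.1 points for the other X-linked protein-coding genes. The largest differences were at Cypt3, a gene of spermatids, with 68.6% and 100% for del/del against 4.18% and 44.0% for del/fl, and at Actrt1, an actin-related gene of the sperm head, with 100% and 100% for del/del against 21.5% and 68.7% for del/fl. At Akap4, the main protein of the sperm tail's fibrous sheath, cover was 55.6% and 61.9% for del/del against 7.102% and 5.96% for del/fl. limma called none of the 3 over all genes.

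Of 20 germ-line genes on autosomes, 12 had no peak, and the 8 with a peak had a lower mean in del/del, 6 of them without overlap. limma called none of the 8. Of 10254 autosomal genes with a peak, 5976 had a lower mean and 1583 were lower without overlap. Smc1b, a meiotic cohesin subunit, was covered 2.74% and 4.96% for del/del against 8.15% and 14.7% for del/fl, and Hormad1, a protein of the meiotic axis, 4.2004% and 0% for del/del against 10.6% and 7.497% for del/fl. Of the 5 X-linked MAGE genes that are broadly expressed, 2 were higher without overlap, beside 68% of the other X-linked protein-coding genes and 4.37% of all genes. Maged1 was covered 92.6% and 100% for del/del against 67.6% and 83.5% for del/fl, Maged2 100% and 100% for del/del against 88.8% and 81.3% for del/fl and Magee1 69.3% and 76.5% for del/del against 69.4% and 95.5% for del/fl, so Magee1 overlapped between the groups.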
